A study of Capra hircus with 2 samples.

Results

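The miR-378 family was followed through every distinct read sequence (tag) of 2 small RNA libraries of goat (Capra hircus) mammary gland. Members were the tags that hold nt 2 to 17 of the conserved miR-378 3p sequence, and 881 of the 659118 tags of both libraries did so. The peak lactation library held 770 of them and the late lactation library 446, and 335 were found in both. Tissue of Laoshan dairy goats, aged 4 years and in the third lactation, was taken at 90 days postpartum (peak lactation) and at 210 days postpartum (late lactation), and the RNA of 5 goats was pooled for each stage. Each stage was therefore 1 library without a replicate, the spread between goats was not measured, and no test between stages was possible. Whether the same goats gave tissue at both stages is not clear from the paper. Below, "higher" and "lower" compare these libraries, and every interval is a 95% interval that covers the counting error of reads only. PCR copies of 1 molecule count as several reads, so the intervals can be too narrow even for the counting of molecules. Fewer cells of a type and less RNA per cell cannot be told apart in such tissue RNA.

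A microRNA is a short RNA cut from a hairpin precursor, and it pairs with messenger RNAs mainly through its seed, the bases 2 to 8 from its 5′ end. The hairpin of miR-378 lies in an intron of PPARGC1B, which encodes PGC-1β, a coactivator of genes of mitochondrial and fatty acid metabolism, and the microRNA is known for its part in lipid and energy metabolism. The gene table of the goat assembly ARS1.2 lists 1 gene named MIR378, within the span of PPARGC1B. Cutting by Drosha and Dicer sets the ends of a microRNA, and exonucleases and nucleotidyl transferases can then shorten or extend the 3′ end, so that 1 hairpin gives many forms, called isomiRs. The names miR-378, miR-378d and miR-378e stand for sequences that share their first 17 nt, and their counts in the study's own list lie close together, so the same tags feed all 3 names. The counts of that list cannot be split between the names, and values are given here for the family as a whole.

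The most abundant member served as the reference, and all positions are counted from 1 at its 5′ end. The members that carry the results are printed below 5′ to 3′, as DNA, with the seed in capitals. They are the reference, the forms that lack or replace its last base, the forms with bases added to it, and the form that starts at nt 2 and so has a shifted seed.
nt 1 to 22 (reference): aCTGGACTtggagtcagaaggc
nt 1 to 21: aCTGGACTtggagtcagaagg
nt 1 to 20: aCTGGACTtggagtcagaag
nt 1 to 21 with adenine added: aCTGGACTtggagtcagaagga
nt 1 to 21 with thymine added: aCTGGACTtggagtcagaaggt
nt 1 to 22 with adenine added: aCTGGACTtggagtcagaaggca
nt 1 to 22 with adenine and thymine added: aCTGGACTtggagtcagaaggcat
nt 1 to 22 with 2 adenines added: aCTGGACTtggagtcagaaggcaa
nt 1 to 22 with thymine added: aCTGGACTtggagtcagaaggct
nt 1 to 22 with guanine added: aCTGGACTtggagtcagaaggcg
nt 1 to 22 with guanine and thymine added: aCTGGACTtggagtcagaaggcgt
nt 2 to 22: cTGGACTTggagtcagaaggc
Whether an added base is also present in the precursor was not analysed here, since no hairpin sequence of the goat gene was used.

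The family as a whole was 2.01-fold higher at late lactation. It held 656652 of 19044002 clean reads at peak lactation, 34481 reads per 1000000 clean reads (RPM), and 512012 of 7385833 clean reads at late lactation, 69324 RPM. That is 3.45% (95% exact binomial interval 3.44 to 3.46) of the peak library and 6.93% (6.91 to 6.95) of the late library. The log2 ratio of late over peak was 1.01 (1.002 to 1.013). The filters of the authors had kept 98.5% of the high-quality reads in the peak library and 73.9% in the late library, and the part of this difference in the ratios was not tested. When tags were grouped by their own nt 2 to 17 around each leading tag of at least 100 RPM, the family ranked 6 of 187 groups at peak lactation and 2 at late lactation. Of the 187 groups, 54 were at least 2-fold higher at late lactation and 51 at least 2-fold lower, with a median log2 ratio of -0.01. Among the 20 largest other groups, 3 had a larger log2 ratio than the family and the median log2 ratio was -0.21. The 3 of those groups whose ratio lay nearest to that of the family are given by their leading tags, since no microRNA names were used here.
Group at log2 0.81: tGAGATGAagcactgtagct
Group at log2 1.26: aACAATGTaggtaagggaagtcgg
Group at log2 1.52: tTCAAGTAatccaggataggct
This likeness rests on 2 libraries, and it says nothing of shared control.

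Summed over the members that start at nt 1, reads that match nt 22 were higher at late lactation and reads that do not were lower, with exceptions among single forms that are given below. The reference tag alone had 404144 reads at peak lactation and 393119 at late lactation, 21222 and 53226 RPM, a log2 ratio of 1.33 (1.32 to 1.33). It made up 61.5% of the family reads at peak lactation and 76.8% at late lactation. The tag of nt 1 to 21, which is the reference without its last cytosine, went the other way. It had 37386 reads at peak lactation and 5636 at late lactation, 1963 and 763 RPM, a log2 ratio of -1.36 (-1.40 to -1.32). Its share of the family was 5.69% at peak lactation and 1.10% at late lactation. The tag of nt 1 to 20 was also lower at late lactation, with 312 RPM against 160 RPM and a log2 ratio of -0.96.

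**Figure D1:**
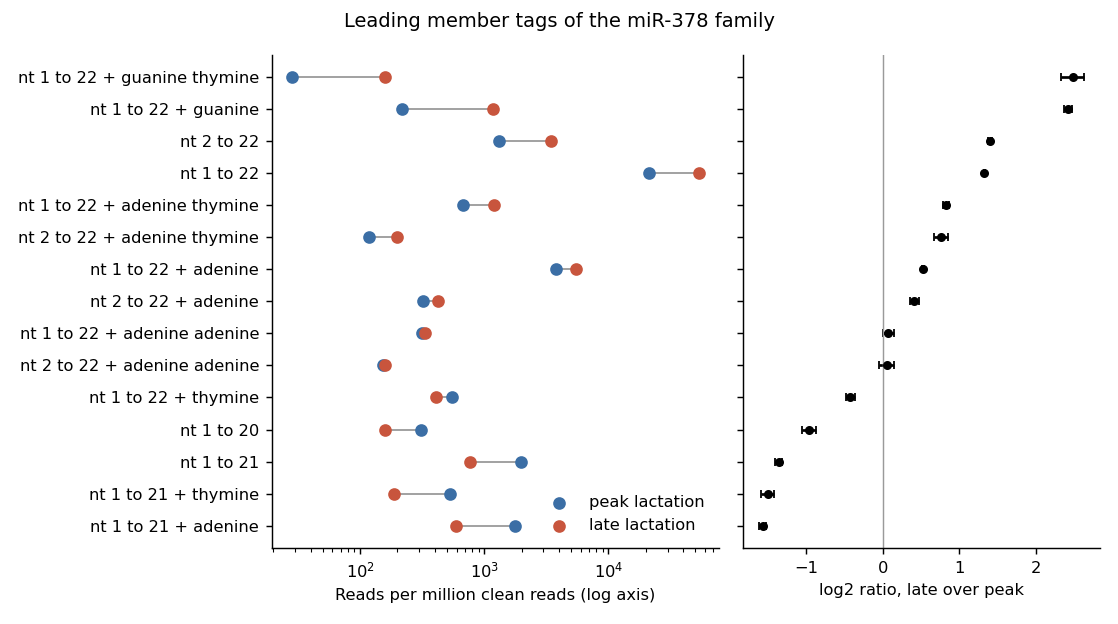
Leading member tags of the miR-378 family, with their level in RPM on a log axis (left) in the peak (blue) and late (red) library, and the log2 ratio of late over peak with 95% counting intervals (right). The 4 tags that lack or replace nt 22 lie at the bottom, at log2 ratios of -0.96 to -1.57, and the reference lies at 1.33.

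Replacement of nt 22 by adenine or thymine went with the same direction, and replacement by guanine did not. The tag of nt 1 to 21 with adenine added is as long as the reference, and it had 33516 reads (1760 RPM) at peak lactation against 4372 reads (592 RPM) at late lactation. Its log2 ratio was -1.57 (-1.62 to -1.53), and its share of the family was 5.10% and 0.854%. The tag of nt 1 to 21 with thymine added had 533 RPM at peak lactation and 188 RPM at late lactation, a log2 ratio of -1.51. With guanine in that place there were 179 reads (9.40 RPM) at peak lactation and 86 reads (11.6 RPM) at late lactation, counted with any first base, and the log2 ratio was 0.31 (-0.08 to 0.69). From nt 1, the tags of 22 nt with adenine or thymine in place of nt 22 were thus lower at late lactation, while the reference of the same length was higher. Adenine took that place in 76.4% of 43942 such reads at peak lactation and 74.9% of 5851 at late lactation, and thymine in 23.2% and 23.7%. Guanine took it in 0.407% (0.350 to 0.471) and 1.47% (1.18 to 1.81), a larger share at late lactation.

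Summed over all members that start at nt 1, the tags that match nt 22 had 27120 RPM at peak lactation and 62451 RPM at late lactation, and their log2 ratio was 1.20 (1.20 to 1.21). The tags that do not match nt 22 had 4838 RPM at peak lactation and 1918 RPM at late lactation, and their log2 ratio was -1.33 (-1.36 to -1.31). Within the second set, reads whose last matching base was nt 18 or nt 19 were higher at late lactation, with log2 ratios of 0.88 (0.66 to 1.11) and 0.997 (0.76 to 1.23). Together with those that end their match at nt 17 they had 18.1 to 20.3 RPM each at peak lactation. The match was read from nt 17 on and stopped at the first difference, so these classes also hold single-base variants with the reference 3′ end. Such a tag changed at nt 19 had 118 reads at peak lactation and 132 at late lactation, and 1 changed at nt 20 had 101 and 93. Reads whose last matching base was nt 21 held most of the set, with 83869 reads at peak lactation and 11944 at late lactation. Of the reads that start at nt 1, 15.1% (15.0 to 15.2) did not match nt 22 at peak lactation and 2.98% (2.93 to 3.03) at late lactation. By the position of the last base, whatever that base was, 6.31% of these reads ended at nt 21 at peak lactation and 1.23% at late lactation, and 73.9% and 84.2% ended at nt 22. Reads that ended at nt 23 made up 14.8% and 11.1%, and those that ended at nt 24 3.76% and 3.11%.

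Members that start at nt 2 gave a second set of reads in which the same 3′ ends could be compared. The loss of the first base moves the seed by 1 base, to the run TGGACTT in place of CTGGACT. Such reads made up 7.18% (7.12 to 7.24) of the family at peak lactation and 7.05% (6.98 to 7.12) at late lactation, so the 5′ end was nearly the same in both libraries. The tag of nt 2 to 22 had 25092 reads (1318 RPM) at peak lactation and 25633 reads (3471 RPM) at late lactation, and its log2 ratio was 1.40 (1.37 to 1.42). Of all reads that start at nt 2, 10.3% (9.99 to 10.5) did not match nt 22 at peak lactation and 2.30% (2.15 to 2.46) at late lactation. Their log2 ratio was -1.18 (-1.29 to -1.07), against 1.10 (1.08 to 1.12) for those that match nt 22. These reads come from the same 2 libraries, so they are no replicate of the stages.

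**Figure D2:**
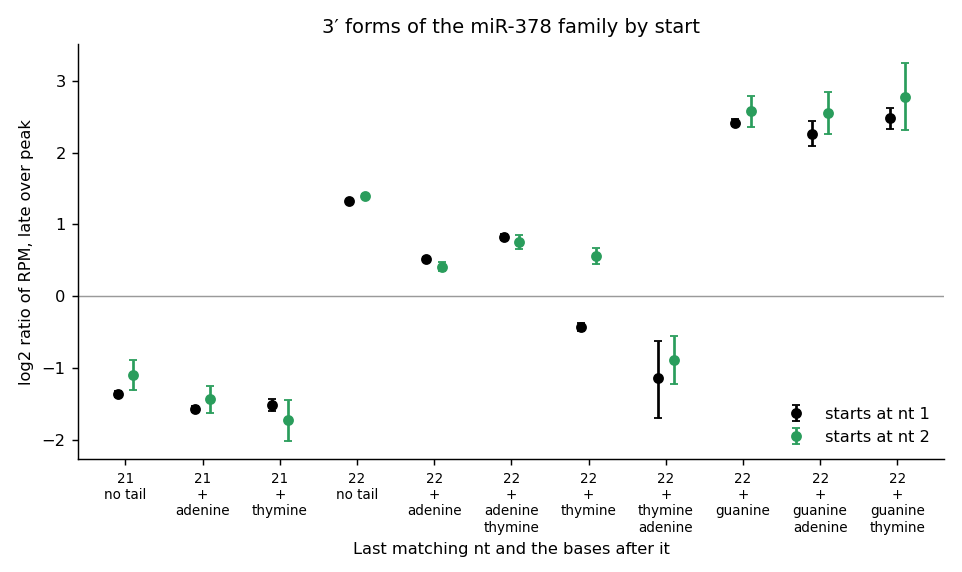
Log2 ratio of RPM, late over peak, for 3′ forms of the family that start at nt 1 (black) and nt 2 (green), with 95% counting intervals. The plotted forms whose last matching base is nt 21 (no tail, adenine or thymine) lie below 0 at both starts, and forms with guanine after nt 22 lie at 2.26 to 2.77.

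Among forms with bases added after nt 22, the ratio differed by the base. A single added adenine was the most frequent addition, and the tag had 3776 RPM at peak lactation and 5440 RPM at late lactation, a log2 ratio of 0.53 (0.51 to 0.54). That is a smaller ratio than that of the reference, and the share of this tag in the family was 11.0% at peak lactation and 7.85% at late lactation. The tag with adenine and thymine added had 679 and 1205 RPM (log2 ratio 0.83), and that with 2 adenines 318 and 334 RPM (log2 ratio 0.07, 0.00 to 0.14). A single added thymine was lower at late lactation, with 553 RPM against 411 RPM and a log2 ratio of -0.43 (-0.49 to -0.37).

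A single added guanine had the largest ratio among the 15 leading members plotted, apart from guanine and thymine together. The tag had 4184 reads (220 RPM) at peak lactation and 8679 reads (1175 RPM) at late lactation, a log2 ratio of 2.42 (2.37 to 2.47). With guanine and thymine added, the level was 28.4 RPM at peak lactation and 159 RPM at late lactation, a log2 ratio of 2.48 (2.33 to 2.63). The other additions that began with guanine also stood higher at late lactation. Guanine and adenine had 401 and 747 reads (log2 ratio 2.26), 2 guanines 6 and 36 reads (3.95, 2.69 to 5.49), and guanine and cytosine 7 and 32 reads (3.56, 2.35 to 4.98), each counted with any first base. Additions that began with thymine gave 204 and 36 reads for thymine and adenine (log2 ratio -1.14) and 850 and 205 reads for 2 thymines (-0.69), both lower at late lactation though they match nt 22, but 16 and 27 reads for thymine and guanine (2.12, 1.18 to 3.11). Additions of 3 or more bases after nt 22 came to 1371 and 447 reads, and their log2 ratio was -0.25 (-0.41 to -0.10). Of all reads with a single base after nt 22, adenine made up 82.3% at peak lactation and 76.9% at late lactation, guanine 4.79% (4.65 to 4.93) and 16.6% (16.3 to 16.9), and thymine 12.0% and 5.82%.

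Reads that start at nt 2 carried longer additions than reads that start at nt 1, in both libraries. At peak lactation, 2 bases followed nt 22 in 15.0% (14.7 to 15.4) of the reads from nt 2 and in 3.70% (3.65 to 3.74) of those from nt 1. At late lactation the shares were 10.7% (10.3 to 11.0) and 3.10% (3.05 to 3.15). Addition of 2 adenines was found in 6.20% of the reads from nt 2 and 0.995% of those from nt 1 at peak lactation, and in 3.25% and 0.519% at late lactation. A single thymine gave the only plotted form whose direction differed by start, with a log2 ratio of 0.56 (0.46 to 0.67) from nt 2 and -0.43 (-0.49 to -0.37) from nt 1, counted with any first base. With guanine added, the log2 ratio was 2.58 (2.36 to 2.80) from nt 2 and 2.42 from nt 1.

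By length, the reads of 22 nt made up 70.0% of the family at peak lactation and 79.2% at late lactation. Reads of 21 nt made up 10.1% and 6.24%, reads of 20 nt 1.11% and 0.283%, and reads of 23 nt 14.9% and 11.2%. The mean length was 22.1 nt in both libraries, since shorter and longer forms both lost share, and the SD over reads was 0.694 nt at peak lactation and 0.556 nt at late lactation. The forms with a replaced last base have the length of the reference, so their shift does not show in the lengths.

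**Figure D3:**
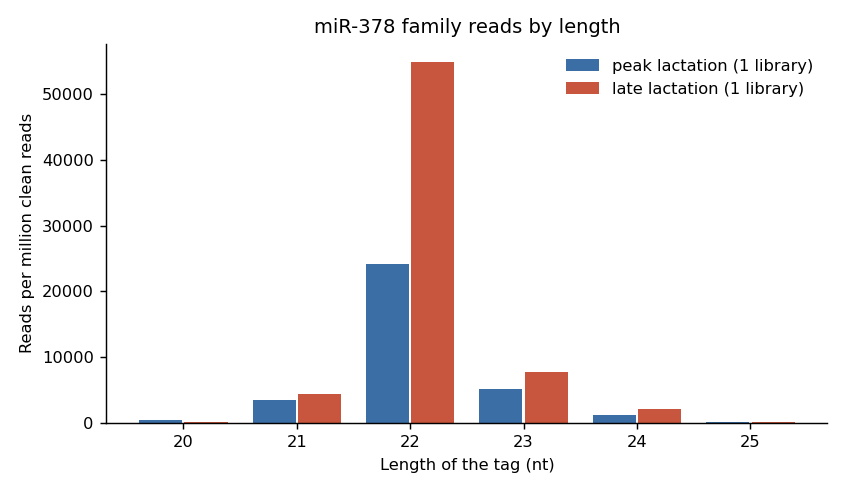
Reads of the miR-378 family per 1000000 clean reads by tag length, in the peak (blue) and late (red) library, 1 bar per library. Reads of 22 nt made up 70.0% of the family in the peak library and 79.2% in the late library.

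Among single member tags, the number that moved was set beside that of all tags. A tag was counted when it had at least 1 RPM in 1 library and differed by at least 2-fold, with a count of 0 set to 0.01 RPM. Of the 881 members, 142 reached that level, 46 of them were higher at late lactation (32.4%) and 37 lower (26.1%). Over all 26175 tags that reached it, 30.7% were higher and 40.1% lower. The median log2 ratio was 0.25 over the members that reached the level and -0.44 over all tags. By 3′ end, 17 of 40 tags that start at nt 1 and match nt 22 were higher and 6 lower, while 11 of 45 that do not match nt 22 were higher and 17 lower. From nt 2, 12 of 34 matching tags were higher and 4 lower, and 2 of 14 tags that do not match were higher and 8 lower. The 10 leading members held 94.1% of the family reads at peak lactation and 96.7% at late lactation. Of the 770 members at peak lactation, 435 were found only there and held 908 reads together, at most 29 for 1 tag. Of the 446 at late lactation, 111 were found only there and held 196 reads, at most 11. By the paper's counts, most of all 466727 tags at peak lactation and of all 259250 at late lactation were found in that library only. The share of members found in 1 library only was smaller than that of all tags at both stages.

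The shift at the 3′ end was compared with that in the 20 largest other groups of tags, each measured against its own leading tag. The share of reads 1 nt shorter than the leading tag had a log2 ratio of -2.37 in the family, and those of the other groups ran from -0.63 to 2.54. That share was higher at late lactation in 15 of the 20 other groups. At late lactation all 20 other groups had a larger share of such reads than the 1.10% of the family, with a median of 17%. The share of reads whose last base was replaced by adenine had a log2 ratio of -2.58 in the family and of -0.51 to 3.16 in the 17 other groups that do not end in adenine. The share of reads with guanine added had a log2 ratio of 1.41 in the family, within the range of -1.82 to 1.71 of the other groups. At 1.70% at late lactation it was above the share in each of the 20 other groups, whose highest was 0.365%. With thymine added, the share in the family had a log2 ratio of -1.43, against -1.21 to 1.39. These groups come from the same 2 libraries, some share sequence with each other, and no test of the difference was made. Whether each is a microRNA was not examined, and the share held by the leading tag went down to 2.34% at peak lactation.

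**Figure D4:**
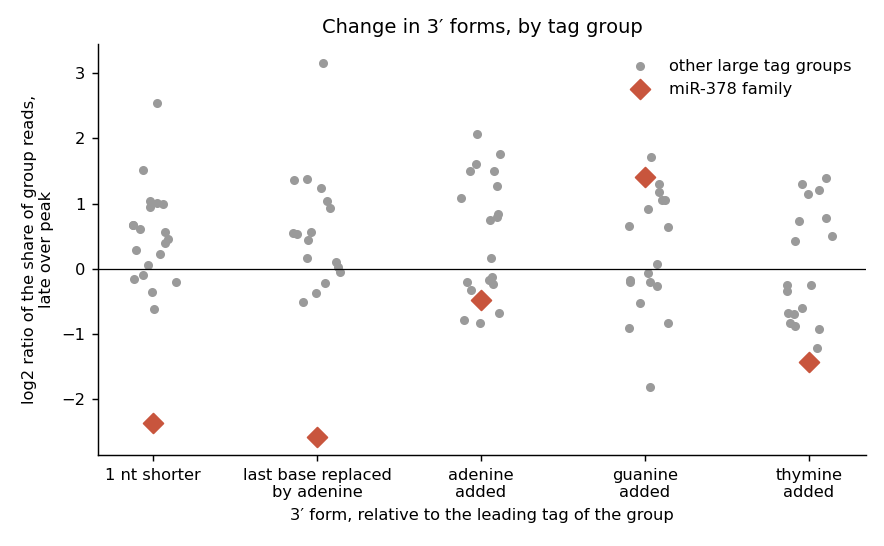
Log2 ratio, late over peak, of the share of group reads in each 3′ form, for the miR-378 family (diamonds) and the 20 largest other tag groups (grey points, 17 for replacement by adenine, groups with a share of 0 not drawn). The family lies at -2.37 for 1 nt shorter and at -2.58 for replacement by adenine, below the points of the other groups.

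Single-base variants were counted over nt 1 to 20 in tags of at least 20 nt with at most 1 difference there. They made up 3.38% (3.33 to 3.42) of 627399 reads at peak lactation and 3.18% (3.13 to 3.23) of 489564 reads at late lactation. In 19 other large groups the median was 2.99% and 2.51%, and the highest was 75.5% and 72.1%. The group with the highest share had 75.2% and 71.8% at position 12 alone. There its leading tag differs by 1 base from that of another of these groups, whose reads are thus counted as variants. Several other groups above the family also had most of their share at 1 position, such as 71.9% of reads out of 72.2% at peak lactation. Differences were unevenly placed within the family. The median over positions 2 to 17 was 0.0475% of reads at peak lactation and 0.0388% at late lactation, while position 16 alone had 1.59% and 1.40%. In the 19 other groups the median of that measure was 0.0433% and 0.0428%, with 8 and 13 groups above the family.

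The leading tags of the most frequent variants are printed with the changed base as the capital. Every one of them has the 22 nt length and the 3′ end of the reference.
A16G: actggacttggagtcGgaaggc
T14G: actggacttggagGcagaaggc
T14C: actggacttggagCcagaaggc
A6G: actggGcttggagtcagaaggc
A12G: actggacttggGgtcagaaggc
A1G: Gctggacttggagtcagaaggc
The variants at positions 6, 12, 14 and 16 differ within nt 2 to 17, so they are counted here beside the members and not in the family total. As background, adenosine deaminases can turn adenosine into inosine, which is read as guanine, and human relatives named miR-378b, miR-378f and miR-378g carry T14G, T14C and A6G. Whether a variant here came from editing, from another gene copy or from copying and reading errors was not tested.

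A16G was the most frequent variant in both libraries. It was found in 9767 reads at peak lactation, 1.56% (1.53 to 1.59), and in 6753 reads at late lactation, 1.38% (1.35 to 1.41). Its log2 ratio of RPM was 0.83 (0.79 to 0.88). Changes from adenine to guanine made up 63.9% of all substituted reads at peak lactation and 61.1% at late lactation, and the adenine at position 18 had 105 and 73 such reads. Apart from position 16, the 5 other adenines had a mean of 0.120% and 0.113% of reads with guanine.

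T14G had the largest ratio among the variants named. It was found in 1011 reads (0.161%, 0.151 to 0.171) at peak lactation and 1785 reads (0.365%, 0.348 to 0.382) at late lactation, and its log2 ratio of RPM was 2.19 (2.07 to 2.30). T14C at the same position was found in 858 reads (0.137%) and 790 reads (0.161%), a log2 ratio of 1.25 (1.11 to 1.39). A6G, within the seed, was found in 1241 reads (0.198%) and 1150 reads (0.235%), a log2 ratio of 1.26. A12G had 996 and 703 reads (log2 ratio 0.86) and A1G 1223 and 667 reads (log2 ratio 0.49). Changes from cytosine to adenine were less frequent at late lactation, with 883 and 191 reads over 3 positions, and C7A alone gave 310 and 35 reads.

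**Figure D5:**
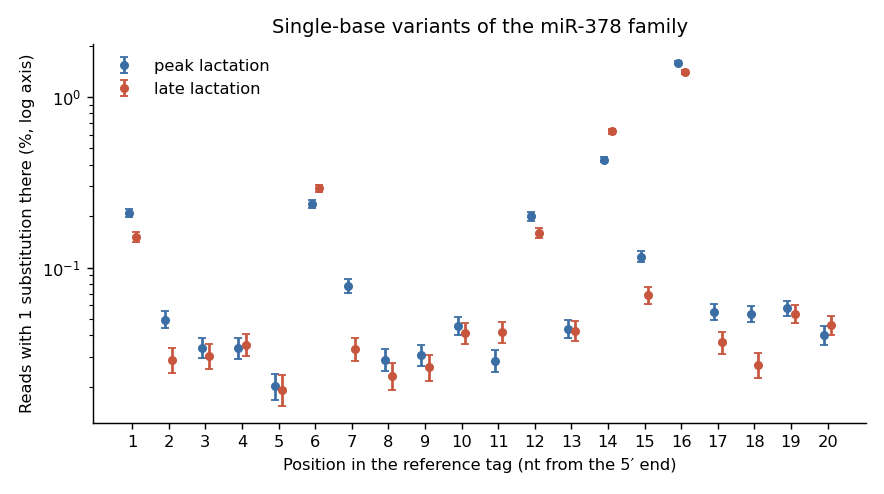
Percentage of reads with 1 substitution at each position of nt 1 to 20 on a log axis, in the peak (blue) and late (red) library, with 95% exact binomial intervals. Position 16 stands highest in both libraries, at 1.59% and 1.40%, and position 14 follows at 0.429% and 0.628%.

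The 3′ ends of the variants were counted in the same way. Among reads without a substitution, 15.0% did not match nt 22 at peak lactation and 2.84% at late lactation. For A16G the shares were 7.83% (7.31 to 8.38) and 1.95% (1.64 to 2.31). For T14G they were 11.1% (9.21 to 13.2) and 2.30% (1.65 to 3.10), and for A6G 19.4% (17.3 to 21.7) and 4.26% (3.17 to 5.59). For T14C, A12G and A1G they were 12.7%, 10.1% and 14.8% at peak lactation and 1.90%, 1.14% and 3.30% at late lactation. In each of these 6 variants the share was thus lower at late lactation, with intervals that did not overlap. A16G and A12G reads had a smaller share than the unchanged reads in both libraries, with intervals that did not overlap. T14G and T14C also had smaller shares in both, but their intervals overlapped that of the unchanged reads at late lactation. A6G had a larger share in both.

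The other strand of the hairpin was found through its pairing with nt 4 to 17 of the reference, and its leading tags differ only at the 3′ end.
nt 1 to 22: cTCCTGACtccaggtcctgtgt
nt 1 to 21: cTCCTGACtccaggtcctgtg
Tags with nt 2 to 17 of that sequence had 245 reads (12.9 RPM) at peak lactation and 99 reads (13.4 RPM) at late lactation. Their log2 ratio was 0.06 (-0.29 to 0.40), so a difference was not detectable at this depth, while the interval does not reach the ratio of the 3p strand. The longer tag had 70 and 42 reads and the shorter tag 89 and 18 reads, log2 ratios of 0.63 (0.04 to 1.20) and -0.94 (-1.76 to -0.20). The shorter tag with adenine added was counted 34 times at peak lactation and 23 times at late lactation. It made up 13.9% and 23.2% of the reads of this strand. The interval around its log2 ratio of 0.80 reached from -0.03 to 1.61. On the 3p strand the tag with adenine in place of nt 22 was lower at late lactation, and that was not seen here. There were 2680 reads of the 3p strand for each read of the 5p strand at peak lactation and 5172 at late lactation.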

How the data were processed

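For each library the authors deposited the count of clean reads of each distinct tag, not normalized. Per the study's methods, RNA of 18 to 30 nt was taken from a gel, ligated to adaptors, amplified by PCR and sequenced, and low-quality reads, reads without an insert, those with poly(A) and those under 18 nt were removed. The versions of the tools behind this were not given in the sources used here.

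Counts were divided by the clean reads of each library and given per 1000000 (RPM). A count of 0 allows 3 reads, 0.158 RPM at peak lactation and 0.406 RPM at late lactation. The reference was the tag whose group has the counts nearest to those of miR-378e in the study's list, so its name rests on that match. Members are tags that contain its nt 2 to 17, whatever lies outside. The match was read from nt 17 on and stopped at the first difference, and a base after the last matching position was called added. Ratios and shares have exact binomial 95% intervals. With 1 library per stage, no edgeR or DESeq2 test was run. Members named are the 10 with most reads in each library and the leading form of each start and 3′ end with at least 0.5% of the family, and other forms were named after their values were seen. The opposite strand was found by pairing (G:U allowed), a way chosen after seeing the data. Marker and lipid lists could not be applied without mature sequences, so the tissue was not checked against markers. Members and lists were chosen with earlier results of these data known. The scripts were tested on simulated data.

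The alternatives were TMM factors of edgeR 4.0.16, median-ratio factors of DESeq2 1.42.0, other totals, other matches, other filters and a thinned peak library. Python 3.11.15, numpy 2.4.6, scipy 1.17.1, matplotlib 3.10.9 and R 4.3.3 were used.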

Additional observations from a re-analysis of the deposited data

How the results depend on the processing

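No paired analysis was possible because each stage is 1 library, and none could be left out. The intervals cover counting error alone, so small shifts fall outside them. The log2 ratio of the family stayed between 0.98 and 1.33 under all 9 alternatives. It was 0.98 with median-ratio factors, 1.09 with totals without the 10 most abundant tags, 1.06 with totals without the family and 1.33 for the identical tag alone, and within the interval under the others. At the 0.98 of median-ratio factors the family is just under 2-fold. With members of any start, 6.06% and 1.20% of the reads ended at nt 21 and 72.9% and 83.3% at nt 22, at peak and late lactation, and with members without a mismatch 6.69% and 72.3% did at peak lactation. Reads from nt 2 that did not match nt 22 made up 10.3% and 2.30%, an alternative chosen after seeing the data. The share of members that start at nt 1 at peak lactation was 92.8% with tags of at least 10 reads. Reads with 1 substitution made up 3.02% and 2.90% over nt 2 to 17 only, and 3.20% and 3.09% with variant tags of at least 10 reads. With a filter of 10 RPM, 13 of 43 members were higher and 11 lower at late lactation. Without a filter, 234 of 881 members were higher and 488 lower. No share of all tags was set beside these counts. Every member found in 1 library only is called when no filter is used, 435 at peak lactation and 111 at late lactation. The peak library was the deeper, and the part of depth in the unfiltered counts was not tested. Thinned to the depth of the late library, the peak library held 508.3 member tags as a mean of 10 draws (479 to 533), against 446 in the late library. With at least 2 reads there were 432 and 273 member tags. The ranks, the calls with TMM factors and the ratio of the 5p strand did not move beyond their limits. Depth limits the members found in 1 library only, each with few reads.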

Other observations

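Tags that share the seed but not nt 2 to 17 included 171 tags with 2 differences from nt 1 to 20, with 291 reads at peak lactation and 177 at late lactation. The leading tag of these, printed with its seed in capitals, had 55 and 34 reads.
Leading tag with 2 differences: aCTGGACTtggggtcggaaggc
A member that starts 1 base before the reference, with cytosine there, had 489 reads at peak lactation and 335 at late lactation, a log2 ratio of 0.82. Whether that cytosine is present in the precursor was not analysed. Members of over 30 nt were 32 tags with 36 reads at peak lactation and 2 at late lactation, and 2 of them also hold nt 2 to 17 of a more abundant group.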
